A study of Mus musculus with 18 samples.

Results

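The comparison set left ventricles of mice infused with isoproterenol against those of mice infused with saline. Its members were the libraries whose treatment label reads Iso 30 (6 libraries) or Control (6 libraries), 12 of the 18 in the series, and all genes of the count table. All animals were wild-type C57BL/6J males of 12 weeks. Isoproterenol was delivered at 30 mg/kg/day, or saline in its place, from an implanted osmotic pump, and ventricles were taken after 21 days. Both groups also received daily intraperitoneal saline injections, the vehicle of the remaining 6 libraries, whose mice had 50 mg/kg minocycline with the infusion. The labels number each library separately but describe pooled RNA, so p-values here reflect only how far libraries differ, which may be technical in part.

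Isoproterenol is a synthetic catecholamine that binds β-adrenergic receptors. In cardiomyocytes these receptors couple through stimulatory G proteins to adenylyl cyclase, cAMP and protein kinase A, which phosphorylates calcium-handling and contractile proteins and so raises rate and force. Receptor kinases, arrestins, inhibitory G proteins and phosphodiesterases restrain the signal when it is sustained. In rodents, prolonged infusion is widely used as a model of hypertrophy, fibrosis and inflammation of the heart.

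After the infusion, the receptor kinase Grk5 was about 2 times its control level, enzymes of fatty acid oxidation and proteins of the sarcomere were lower, and matrix, macrophage and complement genes were higher. Values are CPM, counts scaled to the library total, in single libraries, given as the lowest, median and highest of 6, and fold changes are those of the quasi-likelihood test of edgeR. A gene is said to have risen or fallen where its Benjamini-Hochberg adjusted p was under 0.05 over all genes tested. Of 13281 genes tested, 922 rose (6.94%) and 747 fell (5.62%). The values of the 6 and 6 libraries did not overlap for 917 genes (6.9%), of which 486 were higher (3.66%) and 431 lower (3.25%). Called rises were larger than called falls: the medians were 1.44-fold and 1.28-fold, and 150 rises (1.13%) but 46 falls (0.346%) were at least 2-fold. The 2 sets also differed in level, with a median of 11.2 CPM for called rises and 31.1 CPM for called falls. The median log2 fold change of all genes tested was 0.001.

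**Figure D1:**
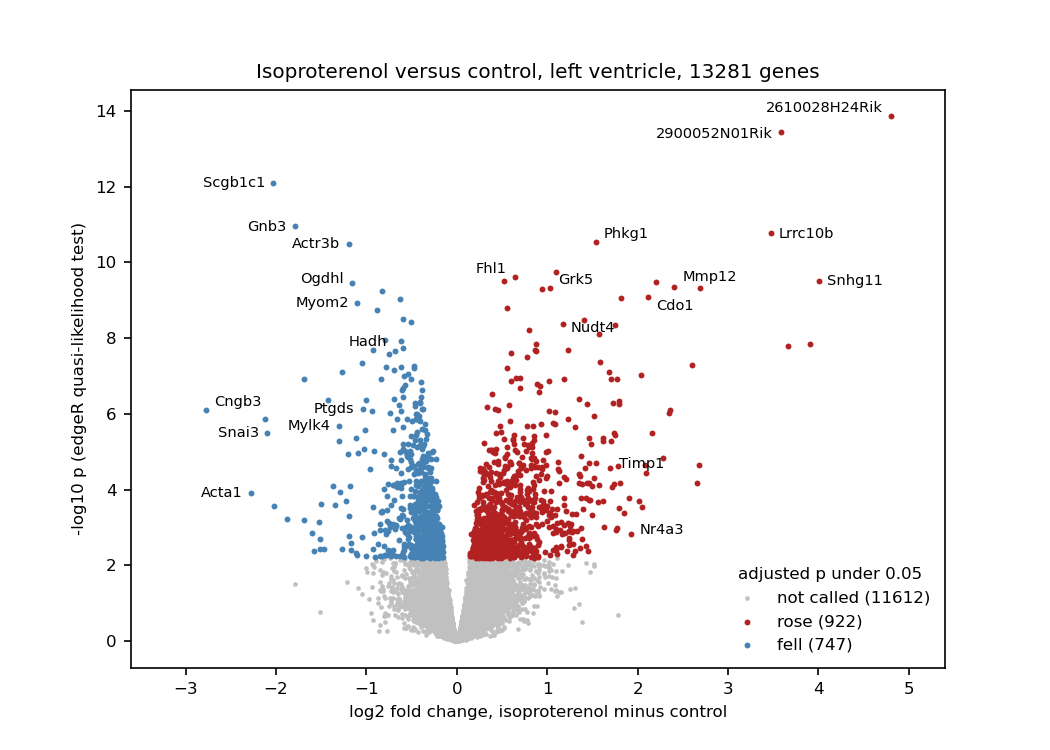
Each point is a gene, with the log2 fold change (isoproterenol minus control) on the x axis and -log10 of the unadjusted p on the y axis. The 922 genes that rose are red, the 747 that fell are blue, and the largest changes lie on the side of the rises.

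Library totals were 17079823 to 22688664 counts in control and 14203041 to 20145792 in isoproterenol (exact 2-sided permutation p = 0.0779). The mitochondrial genome gave 45.4% ± 1.23 of control and 43.2% ± 2.14 of isoproterenol counts (SD, n = 6 each, exact 2-sided permutation p = 0.0606). Single genes of it, mt-Co2, mt-Cytb, mt-Co3, mt-Nd4 and mt-Nd5, were called lower (edgeR adjusted p = 0.00999, 0.00571, 0.0336, 0.00413 and 0.00414). They were among the 10 largest losses in CPM, and all but mt-Nd4 overlapped between groups. Whether these calls passed with libraries left out is not reported here. Ventricular markers were abundant, with Myh6 at 28252 CPM or more in control, while Myh4 of fast skeletal muscle was at 0 in the 12 libraries and the T and B cell markers Cd3e, Cd79a and Ms4a1 summed to at most 1.14 CPM. Myl7, an atrial light chain, ranged from 12.7 to 134 CPM in control and from 8.44 to 96.3 CPM in isoproterenol. It exceeded 80 CPM in Control 5, Control 6, Isoproterenol 5 and 1 minocycline library. Without these 4 libraries 372 genes rose and 309 fell, and without Control 4 alone 580 rose and 499 fell. A call is said to have held throughout where it passed in each of the 12 fits that left out 1 library and in the fit without these 4 libraries. That applied to 321 rises (2.42% of genes tested) and 273 falls (2.06%), and to each gene below said to have risen or fallen unless a limit is stated. In bulk tissue, fewer cells of a type and less RNA per cell cannot be told apart.

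Promoters of 3 genes are shown because each holds, once, a motif of the pathway: the cAMP response element bound by CREB factors, the AP-1 site bound by Fos and Jun factors, and the CArG box bound by serum response factor. Sequences are from RefSeq on GRCm38.p6, 250 bases upstream of the start, written 5′ to 3′ on the gene's strand with the motif in capitals. The start is that of a RefSeq transcript, and for Ldha and Mmp12 it lies inside the longer gene span that the count table gives.
Ldha (chr7:46845554-46845803, plus strand): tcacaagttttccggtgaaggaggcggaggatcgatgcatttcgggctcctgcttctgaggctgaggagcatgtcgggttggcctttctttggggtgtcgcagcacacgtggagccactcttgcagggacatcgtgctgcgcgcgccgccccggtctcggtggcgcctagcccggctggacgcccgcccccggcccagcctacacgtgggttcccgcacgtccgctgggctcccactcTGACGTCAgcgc
Mmp12 (chr9:7347124-7347373, plus strand): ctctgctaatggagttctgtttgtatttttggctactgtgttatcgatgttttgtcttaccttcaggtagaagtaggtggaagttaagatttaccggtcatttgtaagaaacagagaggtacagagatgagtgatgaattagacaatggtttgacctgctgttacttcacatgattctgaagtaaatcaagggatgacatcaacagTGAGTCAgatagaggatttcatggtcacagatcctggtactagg
Acta1 (chr8:123894776-123895025, minus strand): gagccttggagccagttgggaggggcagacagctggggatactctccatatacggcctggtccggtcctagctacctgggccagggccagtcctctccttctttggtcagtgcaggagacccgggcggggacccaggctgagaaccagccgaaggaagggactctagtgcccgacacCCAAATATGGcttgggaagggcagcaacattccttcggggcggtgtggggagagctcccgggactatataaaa
The element TGACGTCA lies 12 to 5 bases before the start of Ldha, which rose. The AP-1 match lies 44 to 38 bases before the start of Mmp12, which rose, and the CArG box 73 to 64 bases before that of Acta1, which fell. Windows from 250 bases before to 50 after the start were found for 10059 of the genes tested, 683 of those that rose and 562 of those that fell, and both strands were searched. AP-1 (TGANTCA) was in 6.19% of all these windows, 10.2% of those of genes that rose and 6.58% of those of genes that fell. The cAMP element TGACGTCA was in 3.52%, 4.39% and 1.6% in the same order, and the CArG box in 1.59%, 1.76% and 2.14%. A match of the cAMP element holds no AP-1 match, and a match is not a measured site.

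In the list of β-adrenergic signalling components, Grk5 stood first by p. The list did not hold Gnb3, a G protein β subunit described below, whose p was smaller. Of 24 tested receptors, G proteins, cyclases, receptor kinases, arrestins and RGS proteins, 4 rose and 2 fell (median log2 fold change 0.12). The rises were 16.7% of the list, against 6.94% of all genes, and the falls 8.33%, against 5.62%. Of these calls, 2 rises and 1 fall held throughout, and only 2 rose without any of Control 3, 4 or 5 or Isoproterenol 3 or 6. Grk5 (ENSMUSG00000003228, chromosome 19, 60889749 to 61092553), a kinase that phosphorylates activated receptors and uncouples them, was at 13.8, 18.7 and 20.7 CPM in control and 31.9, 37.7 and 41.1 CPM in isoproterenol. The lowest isoproterenol library stood above the highest control library, and the log2 fold change was 1.03 (SE 0.10, adjusted p = 3.85e-07). Gnai2, an inhibitory G protein subunit that lowers cyclase activity, went from 141, 147 and 175 to 174, 195 and 204 CPM and rose 1.28-fold, with a small overlap. Adcy6, one of the main ventricular adenylyl cyclases, had 166, 182 and 191 CPM in control and 122, 143 and 159 CPM after the infusion, a fall of 1.27-fold without overlap.

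The main cardiomyocyte receptor gene did not pass the test. Adrb1 was at 5.17, 5.87 and 6.70 CPM in control and 4.04, 4.43 and 7.42 CPM in isoproterenol (log2 fold change -0.26, SE 0.18, adjusted p = 0.375). Isoproterenol 1 was the highest of all 12, and the other 5 infused libraries lay below the lowest control library. Adrb3 was under the filter on low counts, with 6 counts in control and 3 in isoproterenol over 6 libraries each.

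Downstream of cAMP, 15 of 16 phosphodiesterase genes had a positive fold change (median log2 0.23), but 2 passed, of which 1 held throughout. The 2 rises were 12.5% of the list, against 6.94% of all genes. Leaving out any of Control 1, 2, 3 or 4 or Isoproterenol 1, 3, 5 or 6 left 1, and the fit of the 12 libraries gave 4. Pde4b, which hydrolyses cAMP near the calcium channel and the receptor, went from 16.8, 20.1 and 25.5 to 21.4, 30.8 and 31.8 CPM and rose 1.38-fold (adjusted p = 0.00459), with overlapping ranges. Pde4d, another cAMP-specific enzyme, was at 5.92, 9.45 and 10.3 and 7.01, 10.9 and 15.7 CPM (log2 fold change 0.33, adjusted p = 0.417). Among 26 genes of protein kinase A, its anchors and cAMP response genes, 2 rose and 1 fell, and none of the 3 calls held throughout. The shares, 7.69% and 3.85%, were near or below those of all genes, 6.94% and 5.62%. Nr4a3, an orphan nuclear receptor gene induced by cAMP, was among the 15 largest rises of genes with a standard name and at least 1 CPM on average. It ranged widely, from 3.53, 6.98 and 27.1 CPM in control to 15.3, 30.6 and 86.0 CPM in isoproterenol, and its call was lost once the libraries high in Myl7 were left out (adjusted p = 0.129). The catalytic subunit gene Prkaca was at 162, 179 and 185 and 148, 155 and 162 CPM and did not pass (log2 fold change -0.19, adjusted p = 0.0937), but passed when the 12 libraries were fitted by themselves (adjusted p = 0.0137).

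The genes with the smallest p were largely outside these lists. Phkg1 (ENSMUSG00000025537, chromosome 5, 129863421 to 129898549), the catalytic subunit of muscle phosphorylase kinase, which couples calcium and cAMP signals to glycogen breakdown, was at 12.1, 13.8 and 17.3 CPM in control and 35.8, 42.0 and 44.4 CPM in isoproterenol. Every infused library was more than 2 times the highest control library, and the log2 fold change was 1.54 (SE 0.12, adjusted p = 6.24e-08). Nudt4, a hydrolase of diphosphoinositol phosphates, rose from 137, 149 and 178 to 278, 359 and 387 CPM (2.25-fold), one of the 10 largest gains in CPM. Gnb3, a G protein β subunit, fell from 8.95, 10.6 and 12.3 to 2.27, 3.03 and 4.03 CPM (log2 change -1.79, SE 0.14, adjusted p = 3.73e-08). Scgb1c1, a secretoglobin, fell from 5.39, 7.38 and 8.55 to 1.38, 1.79 and 1.93 CPM (log2 change -2.03, SE 0.13, adjusted p = 3.44e-09), and Actr3b, an actin-related protein of the Arp2/3 complex, fell 2.29-fold. In none of these 5 genes did the groups overlap. Maged2, of the MAGE family, rose 2.14-fold, and Epn1, an endocytic adaptor of the epsin family, rose 1.44-fold from 111, 119 and 124 to 159.9, 171 and 182 CPM.

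Several transcripts at or under about 1 CPM in control hearts were well above it after the infusion. Snhg11, a noncoding RNA that hosts small nucleolar RNAs, was at 0.665, 0.832 and 1.06 CPM in control and 6.76, 14.4 and 21.1 CPM in isoproterenol (16.1-fold). Lrrc10b, a leucine-rich repeat protein, went from 0.0504, 0.289 and 0.529 to 2.24, 3.56 and 4.34 CPM (11.1-fold). The 2 smallest p-values belonged to clone names: 2610028H24Rik rose 27.9-fold to 9.38, 10.1 and 14.2 CPM, but its exons overlap those of Ybey, and 2900052N01Rik rose 12.0-fold to 6.27, 7.28 and 9.71 CPM. Enkur, known from cilia and sperm, rose 4.60-fold, Cfap61, a ciliary protein whose exons overlap Crnkl1, 3.41-fold, and Scn10a, a sodium channel best known from sensory neurons, 3.37-fold to 1.31, 2.57 and 3.88 CPM. Starting from a higher control level, Olfml2b, an extracellular olfactomedin-domain protein, went from 5.04, 9.84 and 14.3 to 29.9, 37.9 and 51.9 CPM. Tmprss13, a membrane serine protease, rose 3.47-fold, and Zcchc5, a retrotransposon-derived gene, 3.47-fold.

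The falls in this paragraph are among the 15 largest of genes with a standard name and at least 1 CPM on average. Cngb3, a subunit of cyclic nucleotide-gated channels known from cone photoreceptors, fell from 1.14, 2.32 and 4.51 to 0.125, 0.250 and 0.796 CPM (6.86-fold). Snai3, of the Snail family of repressors, fell 4.28-fold from 0.914, 1.80 and 2.57 CPM. Acot1, a cytosolic acyl-CoA thioesterase, fell 2.68-fold from 7.79, 8.49 and 18.5 to 2.69, 4.03 and 4.58 CPM, but its near-identical neighbour Acot2 could share its reads. Fgf6 fell 4.07-fold, a call lost once the libraries high in Myl7 were left out (adjusted p = 0.156). Nrgn, a calmodulin-binding protein, fell 3.03-fold, lost without those libraries (adjusted p = 0.0512) or without Control 5.

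**Figure D2:**
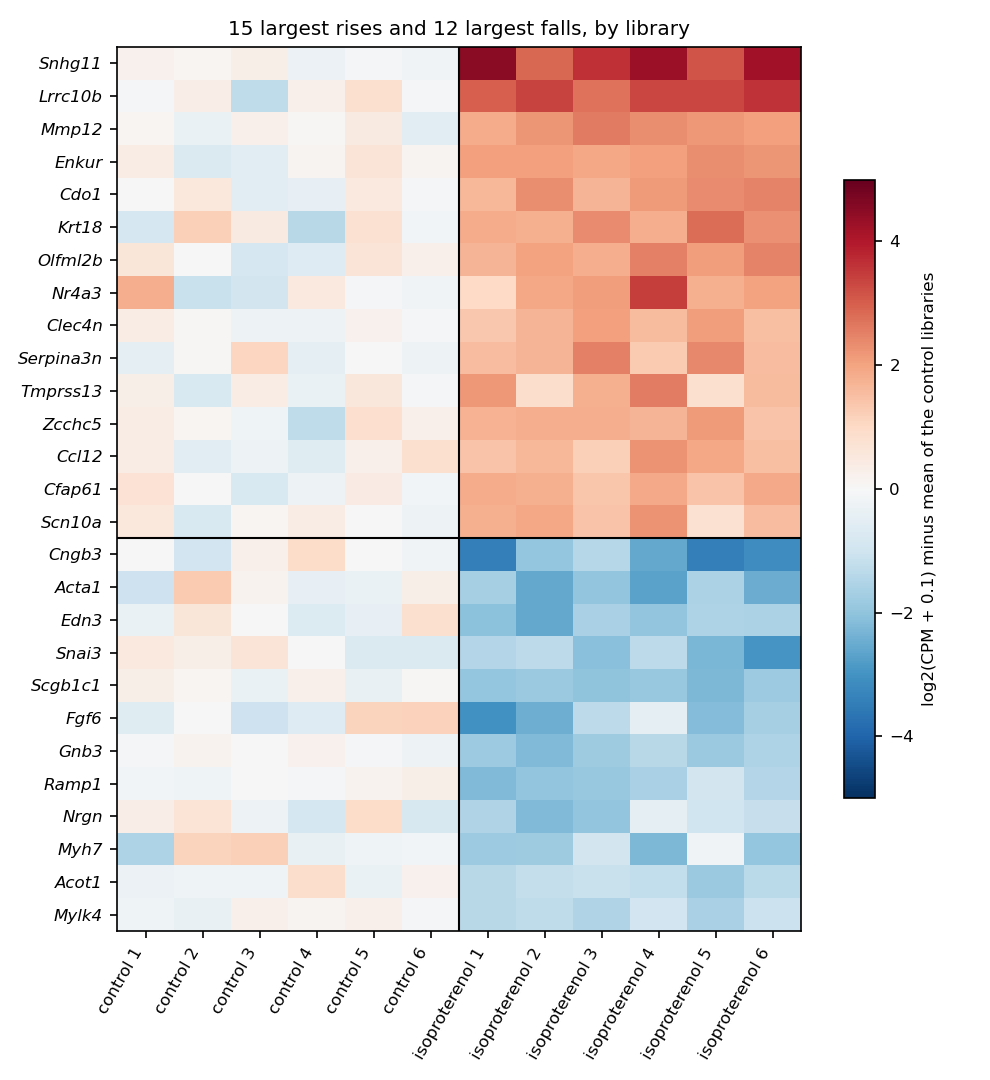
Rows are called genes with a standard name and at least 1 CPM on average, and columns are the 12 libraries. Shown are the 15 with the largest rise (Snhg11 to Scn10a) and the 12 with the largest fall (Cngb3 to Mylk4). Clone and predicted names are left out, among them 2610028H24Rik, which had a larger rise than Snhg11. Colour is log2(CPM + 0.1) minus the mean of the control libraries, and single libraries such as Control 1 for Nr4a3 and Isoproterenol 5 for Myh7 stand near the other group.

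Genes of the contractile apparatus were lower as a group. Of 38 thick filament, thin filament, Z-disc and M-band genes, 13 fell and 2 rose (median log2 fold change -0.20, against 0.001 for all genes). Of these, 9 falls and 1 rise held throughout. Their summed level was 50505 to 52156 CPM in control and 41186 to 44178 CPM in isoproterenol, without overlap. The 7 cardiomyocyte markers together were at 59443 to 66979 CPM in control and 50754 to 55559 CPM in isoproterenol, and 2 of them, Myh6 and Myl2, fell. Their part in the falls of cardiomyocyte genes was not tested.

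Myom2, an M-band protein that links myosin filaments, was at 784, 874 and 1039 CPM in control and 307, 432 and 484 CPM in isoproterenol, and fell 2.14-fold. Myoz2, a calcineurin-binding protein of the Z-disc, went down from 673, 729 and 777 to 442, 474 and 499.5 CPM, and Synpo2l, a Z-disc actin-binding protein, 1.54-fold. None of the Myom2 and Myoz2 values overlapped between groups. Tmod4, a cap of thin filament ends, fell 1.46-fold, Tpm1, the main cardiac tropomyosin, 1.20-fold, and Tnnc1, troponin C, 1.22-fold. Mylk4, a kinase of the myosin light chain kinase family, fell from 102, 133 and 159 to 43.1, 52.1 and 68.1 CPM (log2 change -1.30, SE 0.19, adjusted p = 2.13e-04). Pdlim3, a Z-disc PDZ-LIM protein, went the other way, from 11.1, 17.6 and 19.7 to 24, 26.5 and 36.5 CPM.

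The hypertrophy and fetal gene list held 7 falls and 3 rises in 27 tested members (median log2 fold change -0.19), of which 4 falls and 3 rises held throughout; without Control 2, Control 6 or Isoproterenol 3 there were 4 falls. Acta1, the skeletal α-actin of the fetal heart, was at 245, 482 and 1228 CPM in control and 77.4, 108 and 169 CPM in isoproterenol (log2 fold change -2.28, SE 0.45, adjusted p = 0.00380). All infused libraries lay below the lowest control library, and Control 2 was the highest. Myh6, the α-myosin heavy chain, fell 1.28-fold without overlap, and Camk2d, the main cardiac calmodulin kinase, fell 1.31-fold. Myh7, the β-myosin heavy chain, was at 58.7, 154 and 392 and 35.9, 49.4 and 152 CPM with wide overlap (log2 fold change -1.58, SE 0.47, adjusted p = 0.0391). Its call was lost without any of Control 2, 3 or 6 or Isoproterenol 1, 2, 3, 4 or 6 (adjusted p up to 0.0926), and its exons overlap the noncoding RNA Mhrt. Per length, control hearts held 6788 TPM of Myh6 and 35.3 TPM of Myh7. Nppa and Nppb, the natriuretic peptides, had log2 fold changes of -0.80 and -0.71 and did not pass (adjusted p = 0.208 and 0.169), although Nppa did when the mean level of 3 atrial markers was a covariate (adjusted p = 0.0397).

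The 3 rises of that list were Fhl1, a LIM protein that binds titin, from 96.3, 107 and 123 to 165, 168 and 189 CPM, the deubiquitinase Uchl1 (1.73-fold) and Sprr1a. Sprr1a, a small proline-rich protein induced by stress in cardiomyocytes, went from 0.0475, 0.0867 and 0.244 to 1.06, 1.68 and 2.27 CPM, so its fold change rests on a control level of few counts. Cdkn1a, a cell cycle inhibitor and stress gene, was at 11.9, 26.1 and 43.6 and 22.7, 35.4 and 58.3 CPM and did not pass (adjusted p = 0.386).

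Genes of sarcoplasmic reticulum calcium handling fell in 5 of 22 and rose in 0, with 3 falls that held throughout; 3 fell without any of Control 5 or 6 or Isoproterenol 1, 2 or 6. Hrc, a luminal calcium-binding protein, fell from 948, 1001 and 1029.8 to 662, 727 and 844 CPM, S100a1, a calcium sensor of the pump and release channel, 1.25-fold, and Cacna2d1, an auxiliary subunit of the L-type calcium channel, from 92.0, 102 and 114 to 59.5, 72.4 and 81.0 CPM. None of these 3 overlapped between groups. The central genes did not pass: Atp2a2, the calcium pump SERCA2, had a log2 fold change of 0.027 (SE 0.14), its inhibitor Pln -0.16 (SE 0.10) and the release channel Ryr2 0.21 (SE 0.16). Of 30 potassium and sodium channel genes 4 rose and 3 fell, with 2 rises without Control 4, Control 6 or Isoproterenol 3 and 1 fall without the libraries high in Myl7. The 4 and 3 calls were 13.3% and 10% of the list, against 6.94% and 5.62% of all genes. Kcnip2, the subunit that sets the transient outward current, fell from 106, 120.3 and 160.4 to 62.5, 80.5 and 97.4 CPM. Kcne4, an inhibitory potassium channel subunit, rose 2.02-fold from 1.46, 2.09 and 2.39 to 3.36, 4.10 and 5.20 CPM.

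Fatty acid oxidation had the largest share of called members among the 51 lists. Of 31 genes 22 fell and 0 rose (median log2 fold change -0.37), 18 falls held throughout, and leaving out any 1 library gave 20 to 22. The summed level was 10026 to 12219 CPM in control and 7788 to 9059 CPM in isoproterenol. Hadh, which oxidises hydroxyacyl-CoA, was at 337, 392 and 443 CPM in control and 218, 245 and 262 CPM in isoproterenol, without overlap. The trifunctional protein subunits Hadha and Hadhb fell 1.45-fold and 1.51-fold, and the acyl-CoA dehydrogenases Acadm, Acadl and Acadvl 1.42-fold, 1.27-fold and 1.25-fold. Eci1, an enoyl-CoA isomerase, fell from 162, 177 and 207 to 105, 119.9 and 129 CPM. Genes of the carnitine system fell too: Slc22a5, the carnitine transporter of the cell membrane, fell 1.29-fold, Slc25a20, the carnitine-acylcarnitine carrier, 1.37-fold, and Cpt2 1.33-fold. Cpt1b, the rate-limiting carnitine palmitoyltransferase of muscle, fell 1.25-fold, but the call was lost once the libraries high in Myl7 were left out (adjusted p = 0.0569).

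Of 26 genes of fatty acid uptake and triglyceride turnover 4 fell, each throughout, and 2 rose, neither throughout. The shares were 15.4% and 7.69%, against 5.62% and 6.94% of all genes. Without Control 2, 7 fell. Dgat2, which makes triglyceride, fell from 198, 259 and 284 to 149, 158 and 164 CPM, and Pnpla2, the lipase that starts its breakdown, from 268, 296 and 337 to 197, 219.7 and 248 CPM. Fabp3, which carries fatty acids inside cardiomyocytes, fell 1.32-fold and Slc27a1, a fatty acid transporter, 1.22-fold. The groups did not overlap in any of these 4 genes. Ppara and Ppargc1a, the receptor and coactivator that drive this programme, had log2 fold changes of -0.42 (SE 0.38, adjusted p = 0.516) and -0.30 (SE 0.42, adjusted p = 0.690). Ppargc1a reached 310.1 CPM in 1 control library against a control median of 114. Of 22 metabolic transcription regulators 2 fell (9.09%, against 5.62% of all genes), neither throughout, and 0 rose (against 6.94%).

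Ketone, branched-chain amino acid and TCA cycle genes fell in 17 of 37 and rose in 1 (8 and 1 both throughout and without the libraries high in Myl7, and 11 falls without Control 4 or Control 6). Ogdhl, an isoenzyme of the oxoglutarate dehydrogenase subunit, fell from 113, 127 and 145 to 43.9, 58.6 and 64.6 CPM, without overlap (2.23-fold), while Bdh1, the first enzyme of ketone use, rose from 81.9, 115 and 122 to 127, 173 and 217 CPM. Pccb, Mccc2, Bckdha and Bcat2 of branched-chain catabolism fell 1.33-fold, 1.40-fold, 1.28-fold and 1.26-fold. Citrate synthase, Cs, fell 1.32-fold but the call was lost once the libraries high in Myl7 were left out (adjusted p = 0.0748). Of 47 nuclear oxidative phosphorylation genes 12 fell, but 2 held throughout, Cox6a2 (1.25-fold) and Atp5c1 (1.16-fold). That count was 2 to 7 without any of Control 1, 3, 4 or 6 or Isoproterenol 1, 2, 4, 5 or 6.

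Of 39 glucose and pyruvate genes 3 rose (7.69%, against 6.94% of all genes) and 5 fell (12.8%, against 5.62%). Of these calls, 1 rise and 3 falls remained, both throughout and without the libraries high in Myl7. Ldha (ENSMUSG00000063229, chromosome 7, 46841475 to 46855627), the lactate dehydrogenase subunit whose promoter is shown above, was at 388, 419 and 482 CPM in control and 518, 556 and 594 CPM in isoproterenol, without overlap (1.31-fold). Ldhb, the heart subunit, fell 1.19-fold, lost once the libraries high in Myl7 were left out (adjusted p = 0.0582). Pdk2, an inhibitory kinase of pyruvate dehydrogenase, fell from 338, 351 and 369 to 253, 273 and 319 CPM, and Pgam2, muscle phosphoglycerate mutase, 1.17-fold. The transporters Slc2a1 and Slc2a4 had log2 fold changes of 0.31 and -0.061 and did not pass.

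**Figure D3:**
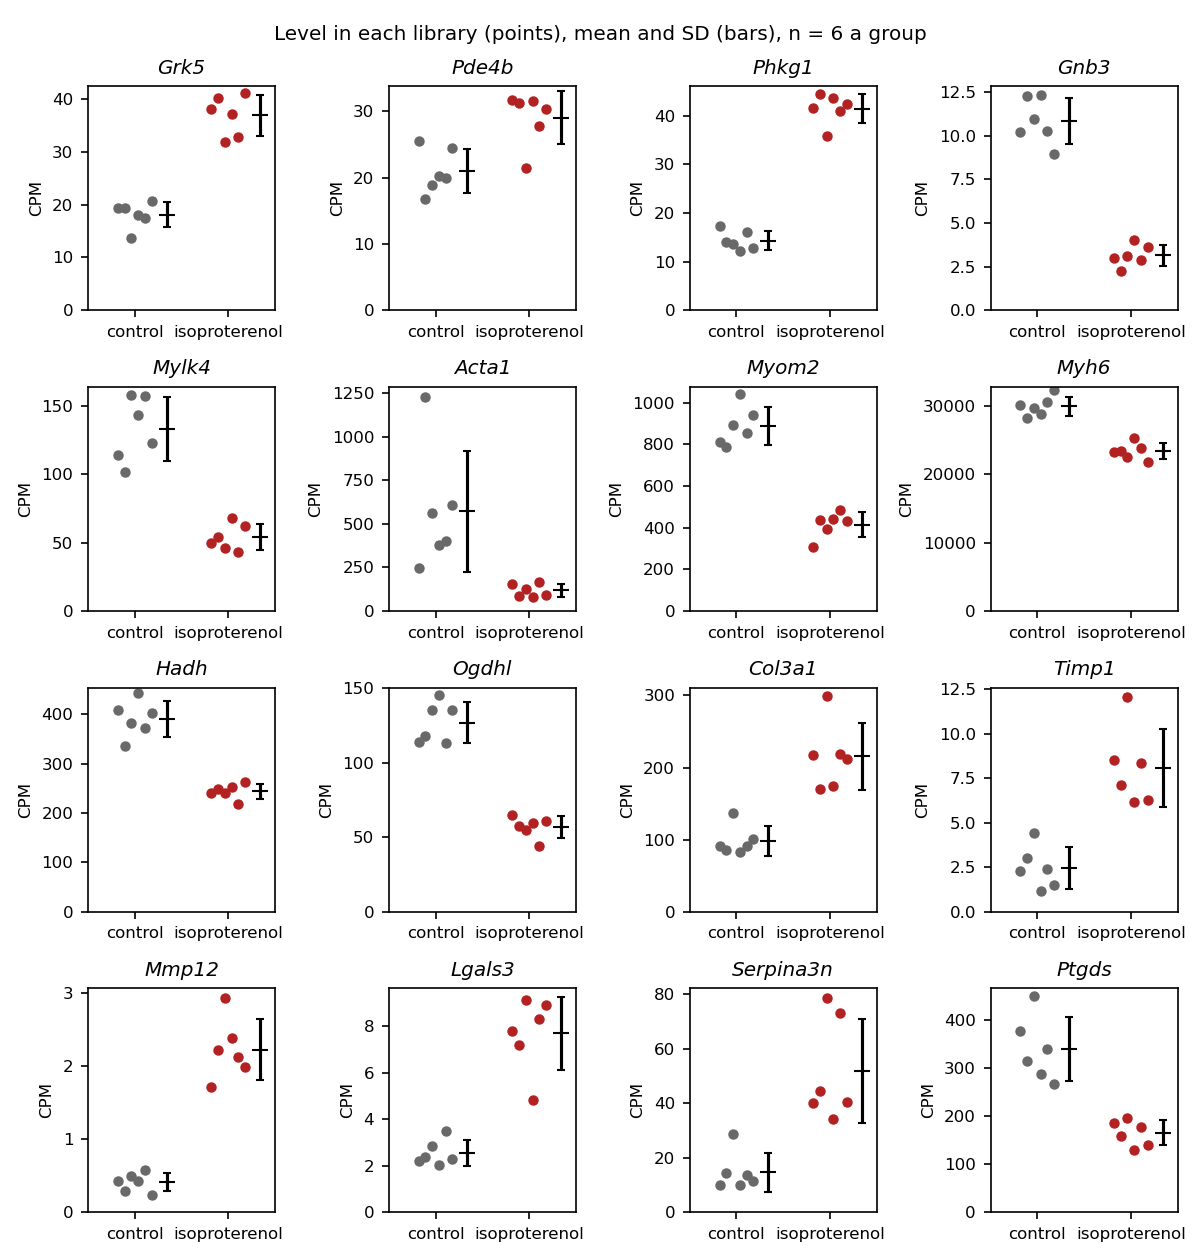
Each panel shows 1 gene, with CPM on a linear axis from 0, a point for each of the 6 control (grey) and 6 isoproterenol (red) libraries and the mean with SD beside them. Among the 16 genes only Pde4b has values that overlap between the groups, and Acta1 varies most among control libraries.

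Matrix genes rose in several classes. Of 20 basement membrane genes 3 rose (15%, against 6.94% of all genes), 1 of them throughout. Leaving out any of Control 1, 3, 4 or 6 or Isoproterenol 1, 2, 3 or 5 left 1 rise. Of 12 small leucine-rich proteoglycans 2 rose (16.7%), neither throughout, and 0 rose without the libraries high in Myl7. Of 16 fibrillar and associated collagens 7 rose and 0 fell (median log2 fold change 0.53, 3 throughout and 3 without the libraries high in Myl7). Their summed level was 419 to 561 CPM in control and 677 to 1022 CPM in isoproterenol. Beside this, the fibroblast markers Pdgfra, Tcf21, Dpt, Dcn and Col1a1 summed to 583 to 789.9 CPM in control and 736 to 1005 CPM in isoproterenol, and Col1a1 alone of the 5 rose. Of 4 smooth muscle and pericyte markers Rgs5, Higd1b and Notch3 rose, Higd1b alone of them throughout, and Myh11 did not pass. Their sums were 468 to 574 CPM in control and 549 to 708 CPM in isoproterenol. In the longer list of these cells 5 of 17 rose, 1 of them throughout, and 1 to 2 rose without any of Control 3, 4 or 6 or Isoproterenol 2, 3, 5 or 6. The part of these cells and of fibroblasts in the matrix result was not tested. Col3a1 went from 82.6, 91.6 and 137 to 170.2, 215 and 299.9 CPM, Col14a1, which sits on fibril surfaces, from 7.60, 9.02 and 11.3 to 17.4, 19.0 and 26.6 CPM, and Col1a2 1.62-fold, each without overlap. Col1a1 went from 43.0, 58.7 and 68.2 to 80.1, 97.9 and 127 CPM without overlap, but its call was lost once the libraries high in Myl7 were left out (adjusted p = 0.0849).

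Of 24 matricellular genes 7 rose (2 throughout, 3 without the libraries high in Myl7). Tnc, tenascin-C of injured tissue, went from 1.10, 1.65 and 2.45 to 4.67, 5.25 and 9.0 CPM, and Fn1, fibronectin, from 39.0, 51.9 and 61.2 to 85.6, 93.2 and 130.4 CPM. Neither overlapped between groups. Postn, periostin of activated fibroblasts, went from 36.3, 46.0 and 108 to 99.7, 129 and 180.1 CPM with overlap (2.49-fold, adjusted p = 0.00902, and 0.116 without the libraries high in Myl7). Of 19 elastic fibre and microfibril genes 8 rose (3 both throughout and without the libraries high in Myl7). Emilin2, an elastin-interface glycoprotein, had the smallest p of the list, and went from 26.7, 28.0 and 38.9 to 53.9, 57.1 and 66.4 CPM. Sparc, a collagen-binding protein, went from 201, 247 and 271 to 334, 391 and 498 CPM.

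Enzymes that process or degrade matrix rose together with their inhibitors. Of 24 collagen processing and crosslinking genes 8 rose and 2 fell (3 and 0 throughout, and 4 and 0 without the libraries high in Myl7), among them Adamts2, the procollagen N-proteinase, from 15.5, 16.9 and 19.3 to 22.7, 29.8 and 37.0 CPM, and Pcolce, an enhancer of procollagen C-proteinases, 1.51-fold. Of 25 matrix proteases and inhibitors 11 rose and 1 fell (7 and 0 both throughout and without those libraries). Mmp12 (ENSMUSG00000049723, chromosome 9, 7344381 to 7369499), the macrophage elastase, was at 0.244, 0.429 and 0.577 CPM in control and 1.71, 2.18 and 2.94 CPM in isoproterenol, the third largest rise among genes with a standard name and at least 1 CPM on average. Adam8, a leukocyte metalloprotease, rose 2.90-fold, Mmp14, a membrane collagenase, 1.51-fold, and Mmp2, which it activates, 1.56-fold. Timp1 went from 1.14, 2.34 and 4.44 to 6.16, 7.71 and 12.0 CPM without overlap (log2 fold change 1.70, SE 0.31, adjusted p = 0.00128), Timp2 rose 1.41-fold and the serpin Serpine2 1.45-fold. Timp4, the inhibitor most typical of heart muscle, fell from 33.1, 41.2 and 56.4 to 14.9, 21.7 and 36.1 CPM, a call lost once the libraries high in Myl7 were left out (adjusted p = 0.0863).

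Wnt modulators were a list in which each call held. Of 16 Wnt modulators and receptors 4 rose and 1 fell, and all 5 calls held throughout. The secreted Frizzled-related proteins Sfrp1, Sfrp2 and Frzb, which bind Wnt ligands, rose 1.89-fold, 3.26-fold and 1.91-fold, and the receptor Fzd1 rose 1.62-fold. Sfrp2 went from 1.40, 2.18 and 3.14 to 5.17, 7.81 and 9.90 CPM, while Lgr6, an R-spondin receptor, fell from 24.1, 29.7 and 31.4 to 15.5, 16.8 and 19.2 CPM. Neither gene overlapped between groups. Of 29 TGF-β family genes 9 rose and 0 fell, but only Inhbb, an activin subunit (1.74-fold), held throughout, and 2 to 5 rose without any of Control 3, 4 or 6 or Isoproterenol 2, 3, 5 or 6. Of 23 fibroblast identity genes 6 rose (1 throughout, and 2 to 3 without any of Control 3, 4 or 6 or Isoproterenol 2 or 5, but 11 without Control 2). DESeq2 called 12 rises and the fit of the 12 libraries 13, and 21 of the 23 had a positive fold change. The one that held was Meox1, a transcription factor of activated fibroblasts, from 7.66, 12.0 and 14.7 to 17.1, 20.5 and 23.2 CPM.

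Lists of hormone and vascular genes held calls in both directions, as did all genes tested. Of 31 genes of vasoactive hormone axes 3 rose and 4 fell (2 and 3 throughout, and 5 rises without Control 2). The 3 and 4 calls were 9.68% and 12.9% of the list, against 6.94% and 5.62% of all genes. Edn3, an endothelin ligand, fell from 1.33, 1.94 and 3.84 to 0.290, 0.562 and 0.689 CPM, and Ramp1, a subunit of the receptor for calcitonin gene-related peptide, from 5.07, 5.80 and 7.37 to 1.20, 1.70 and 3.13 CPM (log2 change -1.69, SE 0.22, adjusted p = 2.44e-05). Ptgds, which makes prostaglandin D2, fell from 267, 327 and 449.7 to 130.4, 169 and 197 CPM. None of these 3 overlapped between groups. Furin, a protease of prohormones, rose 1.18-fold. Of 29 endothelial markers 3 rose and 2 fell (10.3% and 6.90%, against 6.94% and 5.62% of all genes). Of these calls, 1 rise and 1 fall held throughout and without the libraries high in Myl7. The rise was Icam1, a leukocyte adhesion molecule, from 7.66, 10 and 10.8 to 13.9, 15.6 and 19.5 CPM. The fall was Aqp1, a water channel of capillaries, from 332, 364 and 410.2 to 160.1, 223 and 272 CPM. For this list DESeq2 gave 5 rises and 2 falls, and the fit of the 12 libraries 7 and 2. The general markers Pecam1, Cdh5, Kdr and Tie1 did not pass, and summed to 425 to 545 CPM in control and 497 to 599.6 CPM in isoproterenol. Of these markers only Cdh5 did not overlap between groups (135 to 159 CPM in control and 162 to 180 CPM in isoproterenol), and the median of Kdr was lower in isoproterenol.

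Many macrophage genes rose, and most markers of lymphocytes and granulocytes were under the filter on low counts. Of 29 genes of recruited and lipid-handling macrophages 17 rose and 0 fell (median log2 fold change 0.47), 12 held throughout, and 14 to 20 rose with any 1 library left out. Of 21 resident macrophage markers 7 rose (4 both throughout and without the libraries high in Myl7). The summed level of the recruited list did not separate the groups (4610.3 to 5377 CPM in control, median 5091, and 4821 to 5581 CPM in isoproterenol, median 5075), and that of the resident list overlapped too (371 to 475 and 455 to 593 CPM). The 4 macrophage markers Csf1r, Adgre1, C1qa and Cd68 summed to 64.3 to 78.4 CPM in control and 84.8 to 115 CPM in isoproterenol, without overlap. Their part in the rise of these lists was not tested.

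Lgals3, galectin-3 of phagocytes, was at 2.04, 2.35 and 3.51 CPM in control and 4.83, 8.06 and 9.10 CPM in isoproterenol, without overlap. The C-type lectin receptors Clec4n and Clec4d, which sense fungal and damage signals, rose 3.53-fold and 6.08-fold, the latter from 0.101, 0.273 and 0.398 CPM. Ms4a7 rose 2.47-fold, Ccr2, the monocyte chemokine receptor, from 0.738, 2.01 and 2.55 to 2.50, 3.36 and 4.68 CPM, and the lysosomal cathepsins Ctsk and Ctss 1.87-fold and 1.66-fold. Resident markers also rose: Fcrls, an Fc receptor-like scavenger, from 2.85, 3.72 and 4.67 to 6.69, 7.88 and 10.6 CPM, Mrc1, the mannose receptor, 1.54-fold, and Pf4, also of platelets, 1.86-fold. Of 23 lymphocyte and granulocyte markers 5 were tested, and edgeR called 0 of them (3 at an unadjusted p under 0.05, 1 called by DESeq2, 2 by limma-voom and up to 2 by edgeR with 1 library left out). Of 7 mast cell markers 3 rose (5 without Isoproterenol 1); the tryptase Tpsb2 held throughout, from 0.605, 0.749 and 1.14 to 0.887, 1.84 and 2.69 CPM with overlap, and its paralogue Tpsab1 could share its reads.

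**Figure D4:**
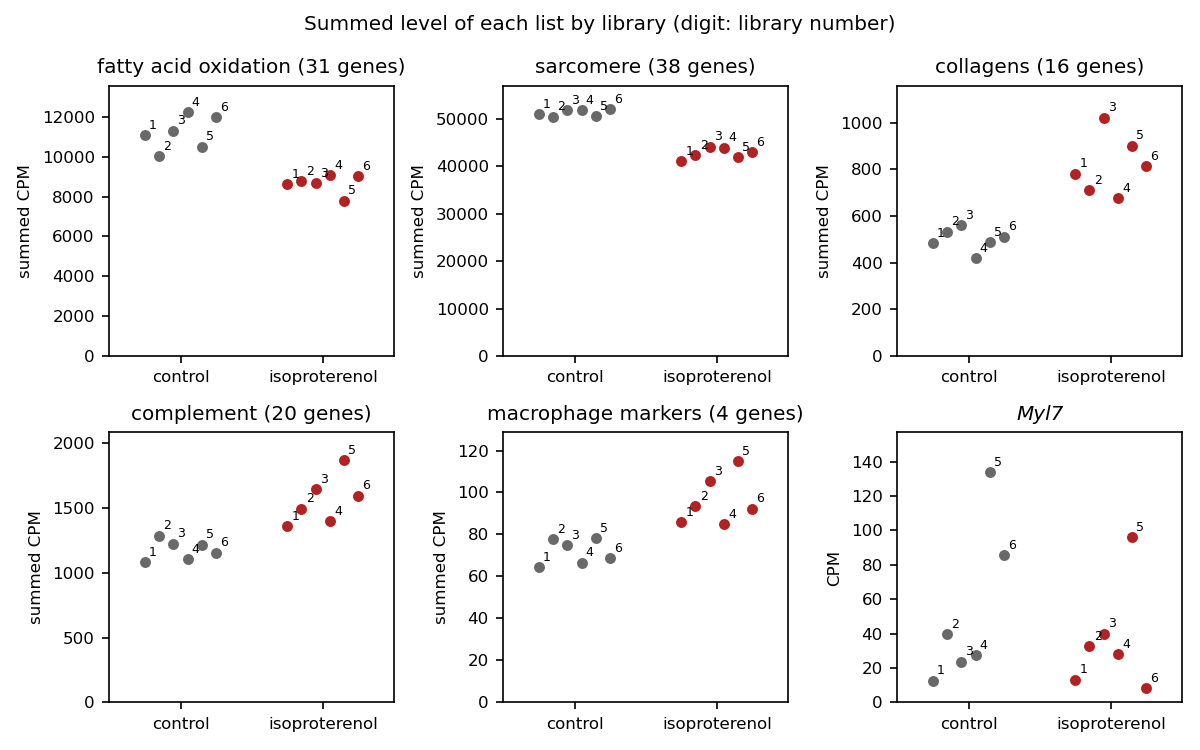
Each panel shows the summed CPM of a gene list or of 4 macrophage markers, or the CPM of Myl7, in every library, on a linear axis from 0 with the library number beside each point. Fatty acid oxidation and sarcomere sums are lower in each isoproterenol library than in each control library, the collagen, complement and 4-marker macrophage sums are higher, and Myl7 is high in Control 5, Control 6 and Isoproterenol 5.

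Complement and cytokine-response genes rose beside them. Of 20 complement genes 12 rose and all 20 had a positive fold change (median log2 0.49). Without the libraries high in Myl7 5 rose, the same 5 that held throughout: C3, the central component, from 97.8, 111 and 136 to 172, 186 and 250 CPM, the proteases C1ra and C1s1 (1.5-fold and 1.47-fold), the C5a receptor C5ar1 (1.99-fold) and the C1 inhibitor Serping1, from 83.5, 96.4 and 103 to 123, 139.6 and 173 CPM. C3 and Serping1 did not overlap between groups. Of 17 chemokines 7 rose (3 throughout, 4 without the libraries high in Myl7 and 4 without Isoproterenol 4 or 5). Ccl2, Ccl9 and Ccl12, which draw monocytes, rose 2.06-fold, 1.79-fold and 3.43-fold. Ccl2 was at 1.16, 1.61 and 2.21 CPM in control and 2.09, 3.49 and 4.51 CPM in isoproterenol.

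Of 21 genes of gp130 cytokine signalling and the acute phase 11 rose and 1 fell (4 and 0 throughout and without the libraries high in Myl7). Stat3, the transcription factor of the pathway, went from 73.2, 91.0 and 113 to 115, 123 and 132 CPM, its inhibitor Socs3 from 2.83, 3.25 and 4.12 to 5.42, 6.59 and 9.20 CPM, and Bcl3, a regulator of NF-κB, rose 1.98-fold. None of these 3 overlapped between groups. Serpina3n, an acute phase protease inhibitor with close paralogues, went from 9.90, 12.6 and 28.8 to 34.2, 42.4 and 78.5 CPM without overlap (3.50-fold, adjusted p = 0.00244, and 0.0540 without the libraries high in Myl7). Junb, whose exons overlap Prdx2, was the 1 of 22 immediate early genes that rose (1.77-fold), where 3 rose without Control 1, 2 without Isoproterenol 1 and 2 by DESeq2 or limma-voom. That 1 call was 4.55% of the list, against 6.94% of all genes. Of 32 interferon-stimulated genes 10 rose, 3 throughout (6 without Control 4 and 4 without the libraries high in Myl7), including Lgals3bp from 19.7, 22.4 and 27.5 to 36.3, 38.7 and 44.0 CPM.

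Stress and growth lists changed in a minority of members. Of 37 antioxidant genes 7 rose and 3 fell (3 and 1 throughout, 4 rises without the libraries high in Myl7): the glutathione peroxidases Gpx1 and Gpx3 rose 1.39-fold and 1.63-fold, the haem oxygenase Hmox1 1.80-fold, and Mgst3, a microsomal glutathione transferase, fell from 172, 186 and 199.7 to 111, 123 and 133 CPM. Cdo1, which oxidises cysteine on the route to taurine, went from 1.92, 2.72 and 4.03 to 9.0, 13.5 and 15.8 CPM (4.34-fold). Odc1, the first enzyme of polyamine synthesis, fell 1.27-fold. Of 31 chaperones 4 fell (12.9%, against 5.62% of all genes) and 1 rose (3.23%, against 6.94%), while DESeq2 called 4 falls and 4 rises. The small heat shock proteins Hspb6 and Hspb8 fell 1.41-fold and 1.38-fold, and of the list only these 2 falls held throughout. Hspb6, a target of protein kinase A in heart muscle, went from 784, 844 and 1015 to 522, 619.8 and 678 CPM. Of 34 cell cycle genes 8 rose, 1 of them, Cdk1, throughout (2.42-fold), and 2 to 5 rose without any of Control 3, 4, 5 or 6 or Isoproterenol 1, 2 or 3.

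The atrophy list had shares of calls near those of all genes, and the short nerve list had no edgeR call. Of 23 atrophy and FoxO genes 1 rose (4.35%, against 6.94% of all genes) and 1 fell (4.35%, against 5.62%). Bnip3, a mitophagy receptor, rose 1.37-fold and Sesn1, a stress-induced sestrin, fell 1.55-fold, while the ligase Fbxo32 had a log2 fold change of -0.086. Of 9 Schwann and nerve markers edgeR called 0 (2 at an unadjusted p under 0.05, 1 called by DESeq2 and 1 by limma-voom). Of 8 epicardial and mesothelial markers 3 rose, each throughout: Krt18, a simple epithelial keratin (4.23-fold), Aldh1a2, which makes retinoic acid (2.34-fold), and C3. The defining mesothelial markers Upk3b, Upk1b, Msln and Wt1 summed to 3.07 to 10.2 CPM in control and 4.88 to 13.9 CPM in isoproterenol, and none was called.

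**Figure D5:**
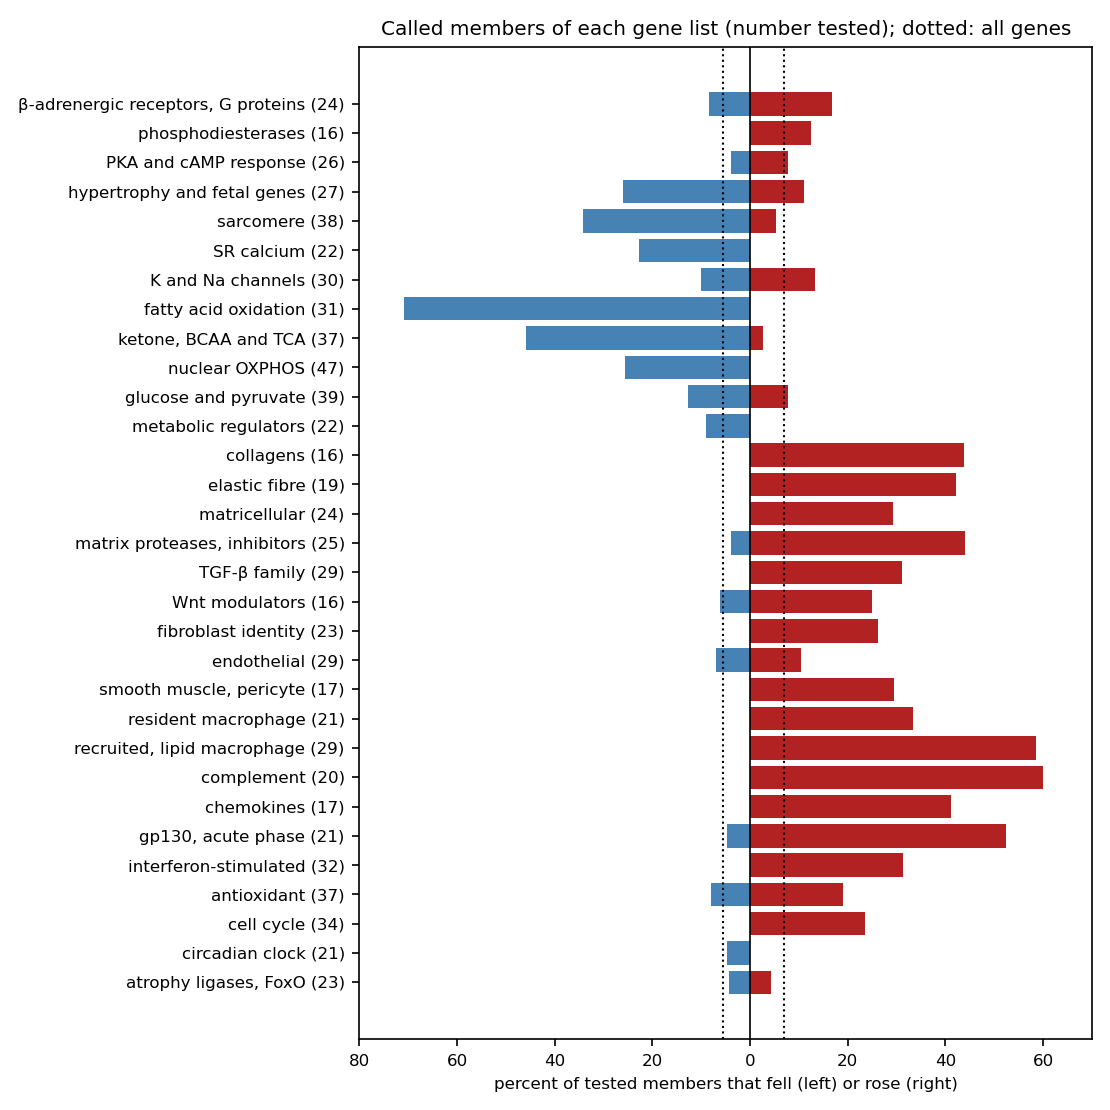
Bars give the percent of tested members of each list that fell (left, blue) or rose (right, red) at adjusted p under 0.05, with the number tested in brackets. Dotted lines mark the shares over all genes, 5.62% and 6.94%, and the longest bars are fatty acid oxidation on the left and complement on the right.

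The median SD of log2-CPM over all genes was 0.17 in control and 0.18 in isoproterenol, and the infused group had the wider spread in 53.0% of genes. Among genes that rose the medians were 0.20 and 0.18. The remaining group, which had minocycline with the infusion and was compared with isoproterenol alone, differed in 7 of 13281 genes (0.0527%). One of them was Ptgds, at 339 ± 66.4 CPM in control, 165 ± 26.2 CPM in isoproterenol and 427 ± 81.4 CPM with both drugs (SD, n = 6 each), higher with both than with isoproterenol alone (log2 fold change 1.37, SE 0.14, edgeR adjusted p = 1.81e-04). Grk5, Acta1 and Hadh were at 36.3 ± 4.30, 173 ± 113 and 219 ± 27.5 CPM in that group, and none of the 3 was called against isoproterenol alone (edgeR adjusted p = 0.958, 0.774 and 0.688).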

How the data were processed

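Polyadenylated RNA of left ventricles was sequenced on an Illumina instrument in paired reads of 150 bases (labels' protocols). The authors trimmed reads in CLC Genomics Workbench 21.0.3 (quality limit 0.05, at most 2 ambiguous bases), per the labels' protocols; mapping, build and strand settings were not given in the sources used here. Per gene, the authors deposited counts, used for all tests, and TPM values, used only to compare levels between genes. Columns were matched to libraries on the description number, and 0 columns of per-sample values matched no library. Identical values occurred in no library pair within a group. The authors' other normalised values and comparison columns were not used here.

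Coordinates are those of the deposited table, of which 48349 of 48709 identifiers (99.3%) are in GENCODE M21 on GRCm38, 87.8% of all with identical ends. Genes were reported as uncertain where the exons of another gene with at least 20% as many counts overlap theirs.

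Genes kept by filterByExpr (13281, holding 99.9% or more of each library's counts) entered tests in edgeR 4.0.16 under R 4.3.3 (TMM scaling, robust quasi-likelihood fit of all 18 libraries with 1 mean per group, 2-sided). The standard error is the size of the log2 fold change divided by the square root of F. The biological coefficient of variation was 13.2%. On simulated counts for the same genes, 95% of 2-fold and 78% of 1.5-fold changes were recovered with 7 false calls among 13281 genes. The simulation changed 200 genes and gave every gene the same dispersion (0.0174). In the real libraries the spread differed between genes, so these figures check the code and are not error rates of the calls here. Differences in library values were tested by exact permutation over 924 regroupings.

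The 51 gene lists (1215 symbols, 1210 matched) and the genes named were chosen with earlier results of these data known, so they are not independent support. Named are the 15 largest rises and falls of at least 1 CPM with a standard symbol, the 15 smallest p, the 10 largest gains and losses in CPM, up to 6 called members of a list with members its account needs, and a fixed set of cardiac genes. From these the text takes examples, and a few genes are not reported here. Alternatives were other scalings, filters and tests (DESeq2 1.42.0, limma-voom with limma 3.58.1), fits of the 12 libraries or without the mitochondrial genome, a 1.5-fold minimum and leaving out each library. After the data were seen, a fit that left out libraries with Myl7 above 80 CPM and one with mean atrial marker level (3 genes) as covariate were added.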

Additional observations from a re-analysis of the deposited data

Results flagged for a closer look

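In 24 of 328 sets of 6 libraries (7.32%) 1 library stood far from the other 5 by Dixon's test at its 95% critical value, where chance gives about 1 in 20. The sets covered each gene named with a level or fold change, total counts and the mitochondrial share, in each group.

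Among control libraries, Control 2 was high in Acta1 (1228 CPM, others 245 to 607) and Postn (108 CPM, others 36.3 to 55.8), and low in Atp2a2 (6868 CPM, others 8137 to 8592) and Ppara (6.96 CPM, others 15.3 to 19.7). Control 3 was high in Col3a1 (137 CPM), Kcnip2 (160.4 CPM) and Serpina3n (28.8 CPM, others 9.90 to 14.4). Control 4 was high in Acot1 (18.5 CPM), Hspb8 (385 CPM) and Ppargc1a (310.1 CPM, others 76.4 to 158). Control 1 was high in Gnai2 (175 CPM) and Nr4a3 (27.1 CPM, others 3.53 to 10.7). Control 5 was high in 2900052N01Rik (1.11 CPM), and Control 6 had the lowest mitochondrial share (43.0%, others 45.1 to 46.2%).

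Among isoproterenol libraries, Isoproterenol 1 was high in Adrb1 (7.42 CPM, others 4.04 to 4.88) and Fhl1 (189 CPM, others 165 to 168). Isoproterenol 3 was high in Col3a1 (299.9 CPM, others 170.2 to 219), Sfrp1 (26.7 CPM) and Tnc (9.0 CPM, others 4.67 to 5.76). Isoproterenol 4 was high in 2610028H24Rik (14.2 CPM) and Nr4a3 (86.0 CPM, others 15.3 to 33.1). Isoproterenol 5 was high in Fn1 (130.4 CPM, others 85.6 to 97.9), Gpx3 (368 CPM) and Myl7 (96.3 CPM, next highest 40 CPM). The calls of Col3a1, Tnc, Sfrp1, Fn1, Acta1 and Fhl1 also passed without the library named for each.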

How the results depend on the processing

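Of 3562 values of the 162 named genes under the alternatives, 3533 kept direction and side of the threshold, 21 lost the call, 3 gained it and 5 changed sign, the last in genes that did not pass in any of those fits. With single libraries left out, log2 fold changes ranged from -0.018 to 0.070 for Atp2a2, from -0.18 to 0.042 for Fbxo32 and from -0.43 to 0.090 for Ppargc1a. Atp2a2 was also below 0 with the atrial covariate (-0.0062). Myh7 also lost its call when all genes were tested and in the fit of the 12 libraries (adjusted p = 0.0605 and 0.0712). With 1 library left out, 580 (without Control 4) to 938 (without Control 2) genes rose and 499 (without Control 4) to 735 fell. The fit without the libraries high in Myl7 gave 372 and 309. A 1.5-fold minimum left 400 rises and 144 falls by construction. Counts under the other alternatives stayed within 1.5 times. None of the 1669 called genes changed direction under any alternative. Few control counts limit the precision of fold changes of genes such as Sprr1a and Clec4d. No paired analysis was possible because the groups share no library numbers.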
